A study of Mus musculus with 4 samples.

Results

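The genes described are those that write, read and erase N6-methyladenosine (m6A), a methyl mark on adenosines inside messenger RNA. The set holds 10 genes, taken by symbol from the 55364 genes in the deposited tables: the writers Mettl3, Mettl14 and Wtap, the YTH domain readers Ythdc1, Ythdc2, Ythdf1, Ythdf2 and Ythdf3, and the erasers Alkbh5 and Fto. All 10 passed the expression filter that left 16571 genes for testing. They were followed in fractions of pachytene spermatocytes, the meiotic cells in which homologous chromosomes are fully synapsed. The cells came from homozygous Ddx4 knock-in mice (KK) and wild-type mice (WT), with 2 RNA-seq libraries of each genotype. Ddx4 encodes a germline RNA helicase of germ granules, the cytoplasmic bodies named in the series title. Both genotypes carried no other allele or treatment in the labels, and their cells were elutriated after a digestion in steps. The sources used here do not give strain, age, the sequence knocked in or the number of animals behind a library. Because no label ties the libraries to different animals, p-values measure the spread between these libraries, which may be technical.

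In the nucleus, METTL3 carries the methyltransferase activity, METTL14 holds the RNA substrate, and WTAP brings the pair to nuclear speckles. YTHDC1 reads the mark in the nucleus, where it takes part in splicing and export, while YTHDF1, YTHDF2 and YTHDF3 read it in the cytoplasm, where YTHDF2 is best known for recruiting deadenylases. YTHDC2 is an RNA helicase with a YTH domain that mouse germ cells need to enter and proceed through meiosis, and it acts with MEIOC and RBM46. ALKBH5 and FTO are iron-dependent dioxygenases that remove the methyl group, and mice without ALKBH5 have impaired spermatogenesis.

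Library totals ran from 17970207 to 19438570 expected counts, and the correlation of log2 CPM over genes was 0.989 to 0.990 within genotypes and 0.973 to 0.974 between them. CPM is a count scaled to library size with TMM factors, and TPM is a share of all transcripts after division by effective length, the part of a transcript in which a read can start. Ddx4, the targeted gene, stood at 54.4 and 52.5 TPM in the KK libraries, against 265 and 273 TPM in the WT libraries, from reads that match the reference gene model. Of 12 pachytene markers 8 were lower and 2 higher in KK, though their summed level was 4781 and 4863 TPM in KK against 3786 and 3825 TPM in WT. Tex101, one of the 2, made 1852 and 1868 TPM of the KK sums and 312 and 311 TPM of the WT sums, and without it the sums were 2929 and 2996 TPM in KK against 3475 and 3515 TPM in WT. Of 8 Leydig cell markers 8 were higher, with sums of 2420 and 2502 TPM in KK libraries against 670 and 705 TPM in WT libraries, of which Insl3 made 2314 and 2399 TPM in KK and 611 and 642 TPM in WT. Of 11 tested spermatogonial markers 7 were higher and 1 lower, and the sums over all 12, tested or not, were 80.0 and 87.7 TPM in KK against 62.5 and 111 TPM in WT. Without Uchl1, whose effective length was 205 bases in WT replicate 2 and 663 bases in WT replicate 1, they were 47.95 and 54.7 TPM in KK against 44.6 and 44.6 TPM in WT; both sums without a gene were chosen after the values were seen. Of 10 spermatid markers 3 were higher and 6 lower, with sums of 18348 and 17778 TPM in KK against 20666 and 20545 TPM in WT. In every library this sum was above that of the pachytene list. The spermatid list holds protamine and transition protein genes with effective lengths of 118 to 304 bases, which give a high TPM per read. Among them Prm2 had 3642 and 3698 TPM in KK against 5432 and 5210 TPM in WT. No sum without these genes was made, so the sums do not weigh spermatid against pachytene RNA. The fractions thus held transcripts of spermatid and Leydig marker genes, and the levels of the m6A genes are those of whole fractions. Sertoli markers summed to 36.3 to 38.7 TPM in KK and 46.9 to 48.8 TPM in WT, and 3 of 8 tested were lower and 1 higher. Peritubular and endothelial, macrophage and erythroid markers summed to at most 11.1 TPM in any library. In that order 2 of 5, 1 of 4 and 0 of 2 tested were higher, and 0 were lower. Beside all these calls, 21.7% of all genes tested were lower and 22.0% higher. No marker was at 0 in all 4 libraries, though the Sertoli marker Fshr reached at most 0.20 TPM. The part of these differences in the results for the m6A genes was not tested, and in bulk samples fewer cells of a type and less RNA per cell cannot be told apart.

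Of the 10 m6A genes 5 passed as lower in KK and 0 as higher, by edgeR's quasi-likelihood test at an adjusted p of 0.05. None was higher at an unadjusted p under 0.05 in edgeR or DESeq2, nor in any of the 13 alternatives. The 5 were Ythdc1, Ythdc2, Mettl14, Ythdf3 and Fto, with changes in the count from -27.3% to -14.98%. Across all genes tested 43.7% passed, 21.7% lower and 22.0% higher. Among the 6469 genes whose mean level lay within the range of these 10 genes (8.19 to 101 CPM), 53.2% passed, 30.7% lower and 22.5% higher. The median log2 fold change of the 10 genes was -0.19, beside 0.0033 over all genes and -0.07 over the genes of that range. Whether these shares differ from the background was not tested. The share of all genes whose KK and WT values do not overlap is not given here. Where a gene below shows no overlap, this only describes its values. The count differed between settings, and the cause was not tested: with an offset for each gene's effective length 2 of 10 were lower (background 13.8%), and limma on log2 TPM called 1 of 10 with pseudocounts of 1 (background 9.36%) and 0.1 (background 9.35%). DESeq2 and library size scaling each called 4 of 10 lower (backgrounds 16.4% and 15.2%). With a library left out, 5 of 10 were lower without KK replicate 1 (background 19.3%), 4 without KK replicate 2 (3457 of 17299 genes), 4 without WT replicate 1 (17.1%) and 5 without WT replicate 2 (17.5%).

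**Figure D1:**
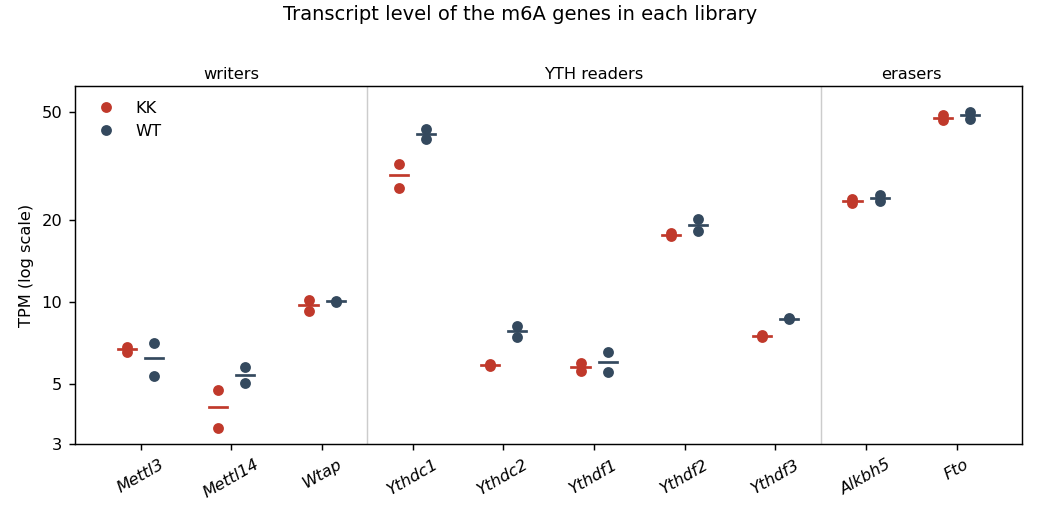
Transcript level of the 10 m6A genes in each library. Points are single libraries (KK left, WT right of each gene), bars are means of 2 libraries, and the y axis gives TPM on a log scale. Mettl14, Ythdc1, Ythdc2, Ythdf2 and Ythdf3 sit lower in both KK libraries than in both WT libraries, though Ythdf2 did not pass the test. The share of all genes without overlap is not given here, so this only describes the points. Mettl3, Wtap, Ythdf1, Alkbh5 and Fto overlap between the genotypes.

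The core writers stood at low to middling levels and one of the 3 changed. Mettl3 (chromosome 14, 52294841 to 52305128, minus strand, GRCm38), the catalytic subunit, had 6.56 and 6.80 TPM in KK libraries, against 5.33 and 7.08 TPM in WT libraries. Both KK values lay between the WT values. Its change was 0.03% with a 95% interval of -20.5% to 25.8%. It rested on few reads: 160 and 155 counts in KK libraries and 121 and 177 counts in WT libraries. The exact Poisson 95% intervals of the WT counts, 100 to 145 and 152 to 205, did not meet, and they cover counting error only. Mettl3 overlaps Tox4 on the opposite strand, which had 3605 to 3915 counts per library, and the library kit named in the labels' protocols does not mark strand, so reads from the shared stretch cannot be told apart.

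Mettl14 (chromosome 3, 123368297 to 123386108, minus strand), the partner that helps bind the RNA, had 4.76 and 3.43 TPM in KK libraries and 5.74 and 5.05 TPM in WT libraries. Both KK libraries lay below both WT libraries. Mettl14 fell by 25.4% (log2 fold change -0.42 ± 0.15, SE; edgeR adjusted p = 0.0237). The call rested on 299 counts in KK and 377 in WT. It was lost in 7 of 13 alternatives, among them without KK replicate 2 (log2 fold change -0.26, edgeR adjusted p = 0.222) and without WT replicate 1 (-0.32, edgeR adjusted p = 0.158). Without KK replicate 1 the log2 fold change was -0.64. With the effective length offset it was -0.41 ± 0.20 (SE; edgeR adjusted p = 0.167), close to the value on counts with a larger error. Wtap (chromosome 17, 12966796 to 12994169, minus strand), the adaptor of the complex, had 9.29 and 10.18 TPM in KK against 10.01 and 10.07 TPM in WT, so that the WT values lay between the KK values. Its change was -3.53%, with a 95% interval of -16.9% to 12.0%. The ratio of Mettl14 to Mettl3 in TPM was 0.726 and 0.504 in KK libraries and 1.077 and 0.713 in WT libraries, so one KK value lay within the WT range.

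The nuclear reader Ythdc1 had the smallest p of the 10 genes. Ythdc1 (chromosome 5, 86804221 to 86836659, plus strand) had 26.2 and 32.1 TPM in KK libraries, against 39.6 and 43.1 TPM in WT libraries. All KK values lay below all WT values. In normalised counts it was 53.8 ± 2.53 CPM in KK and 73.9 ± 3.34 CPM in WT (SD, n = 2 each). It fell by 27.3% (95% interval -33.7% to -20.2%; log2 fold change -0.46 ± 0.07, SE; edgeR adjusted p = 1.3e-06). The call held in all 13 alternatives, with log2 fold changes from -0.52 to -0.38. In the order of levels Ythdc1 came second to Fto in both genotypes, and its ranges overlapped with neither neighbour.

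Ythdc2 (chromosome 18, 44827746 to 44889724, plus strand), the meiotic helicase, had 5.92 and 5.82 TPM in KK libraries and 8.13 and 7.43 TPM in WT libraries. The KK libraries were close to each other and below both WT libraries. Ythdc2 fell by 25.9% (95% interval -34.8% to -15.8%; edgeR adjusted p = 2.7e-04). Its call held in 11 of 13 alternatives, among them the effective length offset (log2 fold change -0.42), and was lost in limma on log2 TPM with either pseudocount (limma adjusted p = 0.13 on log2(TPM + 1)). Its 95% interval with the offset was -36.4% to -12.5%.

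The cytoplasmic readers differed among themselves in what passed the test, although the differences between them were not tested. Ythdf3 (chromosome 3, 16183212 to 16217037, plus strand) had 7.40 and 7.55 TPM in KK against 8.61 and 8.74 TPM in WT, with no overlap. In counts it fell by 21.4% (95% interval -31.4% to -9.92%; edgeR adjusted p = 0.0041). With the effective length offset the change was -14.8% and did not pass (edgeR adjusted p = 0.127), and the mean effective length of Ythdf3 was 3524 bases in KK against 3866 bases in WT. The call of Ythdf3 was also lost in limma on log2(TPM + 1) (log2 fold change -0.19, limma adjusted p = 0.32), likewise with a pseudocount of 0.1. Ythdf2 (chromosome 4, 132184912 to 132212303, minus strand), the most abundant of the 3, had 17.5 and 17.8 TPM in KK and 18.2 and 20.1 TPM in WT. The groups did not overlap, but the change of -9.92% did not pass (95% interval -19.8% to 1.17%; edgeR adjusted p = 0.139). Ythdf1 (chromosome 2, 180904377 to 180920949, minus strand), known for promoting translation, had 5.59 and 5.94 TPM in KK and 6.52 and 5.54 TPM in WT. Its groups overlapped and its change was -3.77% (95% interval -18.7% to 13.8%).

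Shares within the family do not depend on library scaling. Ythdf2 held 57.4% and 56.9% of the summed TPM of the 3 YTHDF genes in KK libraries, against 54.6% and 58.4% in WT libraries. Ythdf3 held 24.3% and 24.1% in KK libraries and 25.8% and 25.4% in WT libraries, a small shift of -1.45 percentage points without overlap. In a design of 2 against 2 no exact permutation test of such shares can reach 0.05, and none was made. The summed level of the YTHDF genes was 30.5 and 31.3 TPM in KK and 33.3 and 34.4 TPM in WT.

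The erasers were among the more abundant of the 10 genes and their levels per transcript were close between genotypes. Alkbh5 (chromosome 11, 60536381 to 60558512, plus strand) had 23.1 and 23.8 TPM in KK libraries, against 23.4 and 24.6 TPM in WT libraries. Its groups overlapped, and its change of -2.19% had a 95% interval of -8.68% to 4.76%. Fto (chromosome 8, 91313525 to 91668439, plus strand), which also acts on the m6Am mark next to the cap, had 46.5 and 48.5 TPM in KK libraries and 47.1 and 49.97 TPM in WT libraries. In TPM the groups of Fto overlapped, while its counts fell by 14.98% (84.4 and 91.9 CPM in KK against 105 and 103 CPM in WT; edgeR adjusted p = 4.3e-04). The mean effective length of Fto, by which TPM differs from CPM, was 2361 bases in KK and 2724 bases in WT, a change of -13.3%. With the effective length offset its change was -3.26% (95% interval -12.0% to 6.33%). Fto held 66.8% and 67.1% of the summed eraser TPM in KK libraries and 66.8% and 67.0% in WT libraries.

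**Figure D2:**
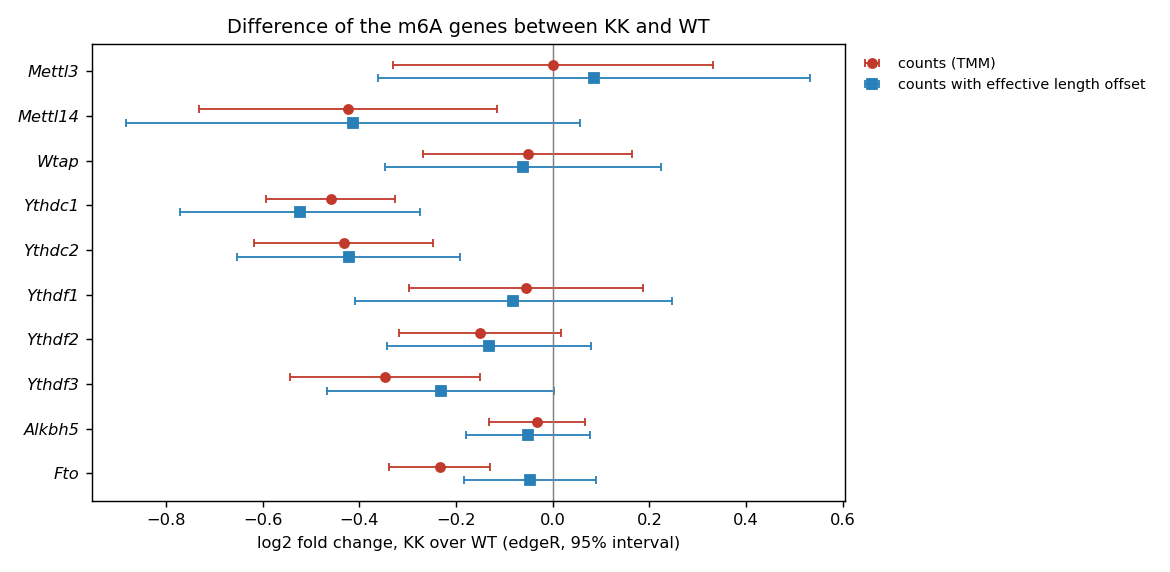
Log2 fold change of KK over WT for the 10 m6A genes with 95% intervals from edgeR, on counts (circles) and with an offset for effective length (squares). The intervals of Ythdc1 and Ythdc2 lie below 0 on both, while those of Mettl14, Ythdf3 and Fto lie below 0 on counts and reach past it with the offset. Fto was at -0.23 on counts and -0.05 with the offset and Ythdf3 at -0.35 and -0.23, while Mettl14 stayed near its value (-0.42 and -0.41) with a wider interval.

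The order of the 10 genes by TPM was nearly the same in both genotypes. From high to low in KK it ran Fto, Ythdc1, Alkbh5, Ythdf2, Wtap, Ythdf3, Mettl3, Ythdc2, Ythdf1 and Mettl14. In WT the only difference was that Ythdc2 (7.78 TPM) stood above Mettl3 (6.21 TPM). The ranges of Ythdc2 and Ythdf1 overlapped in KK, and those of Mettl3, Ythdf1 and Mettl14 overlapped pairwise with their neighbours in WT. Fto stood at percentile 78.1 in KK and 78.3 in WT of the TPM of all genes tested, and Mettl14 at 36.5 in KK and 43.1 in WT.

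Isoform estimates are a description with no test. With 2 libraries per genotype, values can fail to overlap through spread between libraries alone. The share of all isoforms without overlap is not given here, so non-overlap below only describes the values. Ythdf3 has 4 annotated isoforms, 3 of them with counts, that differ at both ends of the gene. Ythdf3-201 had 2.11 and 2.07 TPM in KK libraries, against 4.27 and 3.31 TPM in WT libraries. Ythdf3-203 had 4.73 and 5.06 TPM in KK libraries, against 4.34 and 3.86 TPM in WT libraries. Neither overlapped between the genotypes, one being lower and the other higher in KK, and Ythdf3-203 held 63.99% and 66.98% of the gene's transcripts in KK against 50.39% and 44.15% in WT. Ythdf3-202 held 7.47% and 5.60% in KK libraries and was listed at 0 in WT replicate 1 and at 18.02% in WT replicate 2. Its estimate thus varied between replicates, and the cause was not tested.

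Ythdf3-203 codes for a different start of the reader than Ythdf3-201 and Ythdf3-202, which share theirs. Ythdf3-201 opens with 49 coding bases in its exons 1 and 2, and Ythdf3-203 instead starts in an exon of its own with 61 coding bases, and the difference of 12 keeps the reading frame. Ythdf3-202 adds a cassette of 33 bases. The last exon is 1052 bases in Ythdf3-203 and 3083 bases in Ythdf3-201, so the annotated isoforms also differ in their 3' end. The sequences, shown since they tell the isoforms apart, are from the GENCODE M21 transcripts of GRCm38, plus strand. Capitals mark the start codon of Ythdf3-201, the coding bases found only in Ythdf3-203 (chr3:16187055-16187115) and the cassette of Ythdf3-202 (chr3:16203187-16203219). The start of Ythdf3-201 is shown as its 49 coding bases before the shared exon, and the stretches of Ythdf3-203 and Ythdf3-202 are followed or flanked by 20 shared bases.
Ythdf3-201, start: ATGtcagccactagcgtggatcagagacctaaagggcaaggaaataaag
Ythdf3-203, start: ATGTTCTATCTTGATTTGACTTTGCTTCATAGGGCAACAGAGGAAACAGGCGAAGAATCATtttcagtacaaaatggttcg
Ythdf3-201, no cassette: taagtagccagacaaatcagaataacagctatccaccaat
Ythdf3-202, cassette: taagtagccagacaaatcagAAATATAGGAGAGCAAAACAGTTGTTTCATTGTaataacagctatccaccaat

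**Figure D3:**
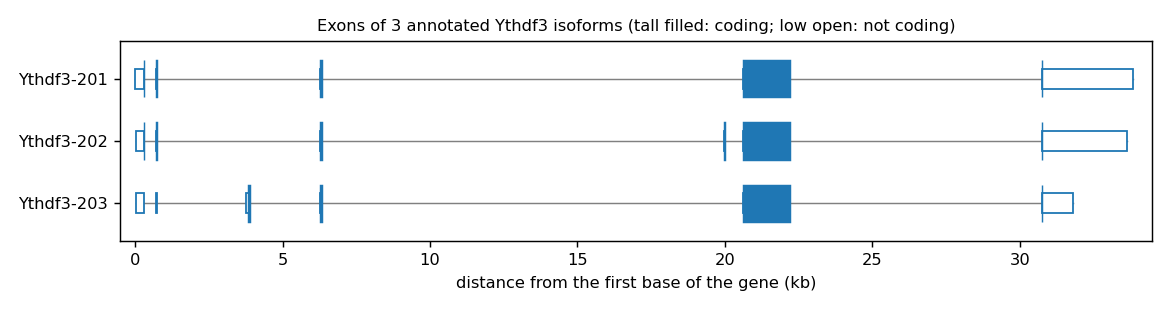
Exons of Ythdf3-201, Ythdf3-202 and Ythdf3-203 by distance from the first base of the gene in kb. Tall filled boxes are coding, low open boxes are not, and lines are introns. Ythdf3-203 has an exon that the others lack and the shortest last exon (1052 bases).

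Ythdc1 has 9 annotated isoforms, and its 2 main coding ones differ by an in-frame stretch of 24 bases. Ythdc1-201, which has the stretch, stood at 4.82 and 3.92 TPM in KK libraries, against 8.69 and 9.57 TPM in WT libraries. Ythdc1-203, which lacks it, stood at 13.2 and 12.6 TPM in KK libraries, against 14.9 and 15.3 TPM in WT libraries. Both were lower in KK without overlap, and Ythdc1-201 held 18.4% and 12.2% of the gene's transcripts in KK against 22.0% and 22.2% in WT. The isoforms also differ in the annotated start of their first exon. Another coding isoform, Ythdc1-202, held 4.96% in KK replicate 2 and was listed at 0 in each other library. The stretch (chr5:86831773-86831796, plus strand, GRCm38) comes from an upstream splice acceptor at exon 14 and is in capitals, with 20 shared coding bases on each side.
Ythdc1-201: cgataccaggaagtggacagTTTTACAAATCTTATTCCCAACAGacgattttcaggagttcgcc
Ythdc1-203: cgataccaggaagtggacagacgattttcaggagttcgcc
Isoforms annotated with a retained intron took 25.0% and 33.9% of Ythdc1 transcripts in KK libraries and 26.7% and 35.6% in WT libraries, with overlap.

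Ythdf2 was split between the coding Ythdf2-203 and Ythdf2-202, annotated with a retained intron and thus not as coding. Ythdf2-203 had 7.16 and 7.90 TPM in KK libraries, against 8.54 and 9.86 TPM in WT libraries, and Ythdf2-202 had 10.3 and 9.93 TPM in KK against 9.64 and 9.95 TPM in WT. The coding isoform was lower in both KK libraries, while Ythdf2-202 overlapped. The retained-intron share was 59.1% and 55.7% in KK and 53.0% and 49.6% in WT, without overlap. Both main isoforms of Ythdc2 were lower in KK: the coding Ythdc2-201 had 3.41 and 3.44 TPM in KK against 4.91 and 4.71 TPM in WT, and Ythdc2-203, annotated as a target of nonsense-mediated decay, 2.44 and 2.37 TPM in KK against 3.22 and 2.71 TPM in WT.

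For Fto the full-length Fto-201 had 29.5 and 33.2 TPM in KK libraries, against 39.6 and 37.6 TPM in WT libraries. Fto-207, an annotated transcript of 819 bases, had 11.5 and 12.6 TPM in KK libraries and 5.82 and 8.32 TPM in WT libraries. Fto-201 was lower and Fto-207 higher in both KK libraries. The estimate of Fto-207 rests on 91.4 and 90.9 counts in KK and 40.1 and 61.2 counts in WT. In counts the share of Fto-207 differed by 2.70 percentage points between genotypes, against 10.9 in the isoform percent. Fto-207 starts its coding sequence in an exon that Fto-201 lacks and skips exon 4 of Fto-201. Its annotation stops inside exon 5 of Fto-201, with coding bases up to its last base. No 3' untranslated stretch is annotated for it, so its 3' end may be incomplete. The gene-level TPM of Fto includes this short isoform. The 39 coding bases of the exon that Fto-201 lacks (chr8:91387739-91387777, plus strand, GRCm38) are in capitals.
Fto-207, start: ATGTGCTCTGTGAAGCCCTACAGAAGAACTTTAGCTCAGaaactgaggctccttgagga
Alkbh5 was assigned to the single isoform Alkbh5-201 in all 4 libraries. Mettl3-201, the main coding isoform of Mettl3, held 85.6% and 85.4% of its transcripts in KK and 90.6% and all in WT, and each of its other isoforms had at most 6.19 counts in a library. The coding Wtap isoforms overlapped between genotypes except Wtap-205 and varied between replicates, for example Wtap-201 at 0.46 and 2.11 TPM in KK and 3.20 and 1.42 TPM in WT.

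**Figure D4:**
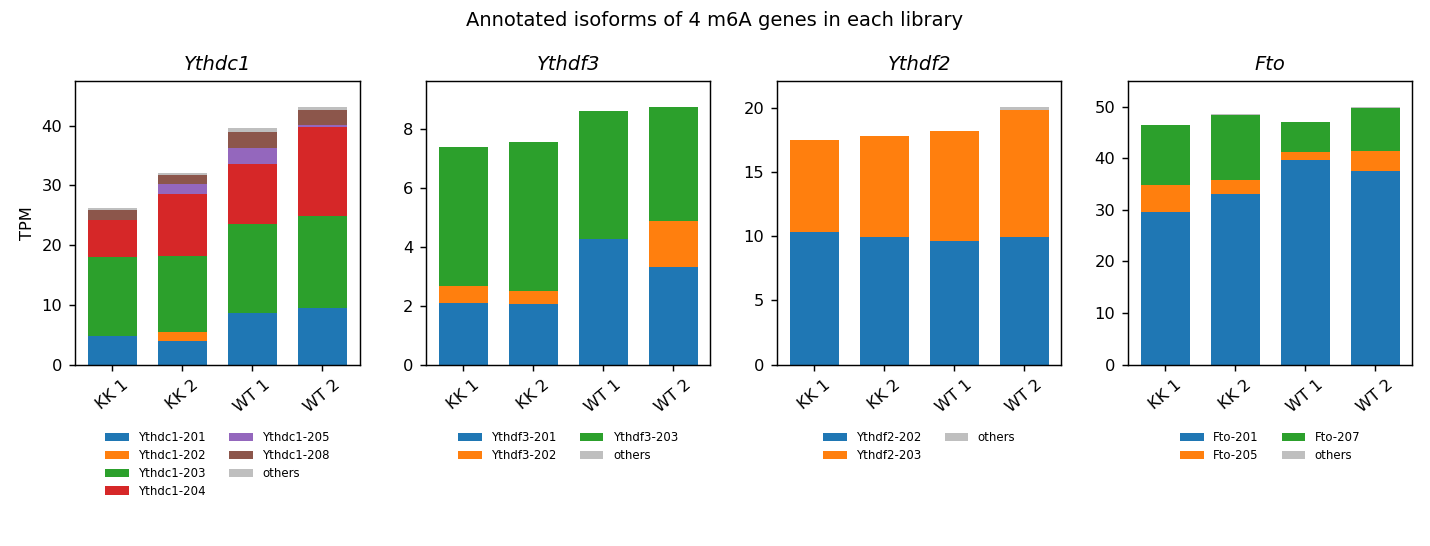
TPM of annotated isoforms of Ythdc1, Ythdf3, Ythdf2 and Fto in each library (KK libraries left, WT libraries right). Isoforms under 1.5 TPM in every library are pooled as others. The Ythdf3-201 part is smaller in KK (2.11 and 2.07 TPM) than in WT (4.27 and 3.31 TPM).

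Around the 10 genes, 36 further genes were listed, and all passed the filter. The list is mixed: it holds accessory writers, other methyltransferase genes, proposed readers and partners of Ythdc1 and Ythdc2. Genes of the methyl donor cycle and the rest of the AlkB family complete it, and not all of these act on m6A. By the edgeR test 16 were lower and 4 higher in KK, and 16 did not pass. The shares of 44.4% lower and 11.1% higher stand beside 21.7% and 22.0% over all genes tested, a background not matched to their level. Whether the shares differ from it was not tested. The median log2 fold change was -0.15. Under limma on log2(TPM + 1) 9 were lower and 1 higher, beside 9.36% and 13.7% of all genes. DESeq2 called 12 lower and 0 higher (16 and 3 at an unadjusted p under 0.05), beside 16.4% and 13.2% of all genes.

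In the writer complex 3 of 5 accessory genes were lower and 0 higher. Cbll1, the E3 ligase-like subunit also called Hakai, had 23.9 and 23.3 CPM in KK libraries, against 34.9 and 36.5 CPM in WT libraries, and fell by 33.9% (edgeR adjusted p = 4.1e-06). Rbm15 and Rbm15b, which guide the complex to its sites, fell by 18.05% and 17.4%. The calls of Cbll1 (log2 fold change -0.36, limma adjusted p = 0.109) and Rbm15 (-0.27, limma adjusted p = 0.123) were lost in limma on log2(TPM + 1), likewise with a pseudocount of 0.1. The call of Rbm15b was lost in 6 of 13 alternatives, among them without KK replicate 1 (log2 fold change -0.18). Virma, the scaffold, had 73.8 and 80.5 CPM in KK against 84.7 and 79.8 CPM in WT and did not pass, except without KK replicate 2 (log2 fold change -0.16), and Zc3h13 did not pass. Of 6 genes listed with the other methyltransferases 3 were lower. Mettl16, which methylates U6 RNA and the Mat2a messenger, fell by 24.6% (edgeR adjusted p = 0.0019), Mettl4 by 17.1% and the cap m6Am writer Pcif1 by 11.9%. With the effective length offset Mettl16 was at a log2 fold change of -0.89, against -0.41 without it, and its call was lost in limma with either pseudocount (limma adjusted p = 0.056 on log2(TPM + 1)). The call of Pcif1 was lost in 8 of 13 alternatives, among them without KK replicate 1 (log2 fold change -0.19), WT replicate 1 (-0.19) and WT replicate 2 (-0.20). That of Mettl4 was lost in 5, among them without KK replicate 1 (-0.24).

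Of 8 other proposed readers 4 were lower and 2 higher. Prrc2a, a reader reported to act in mouse spermatogenesis, had 717 and 761 CPM in KK libraries, against 1106 and 1147 CPM in WT libraries, and fell by 34.4% (edgeR adjusted p = 1.1e-13). Hnrnpa2b1, a nuclear RNA-binding protein gene, had 211 and 208 CPM in KK and 299 and 319 CPM in WT and fell by 32.2%, and Hnrnpc fell by 16.9%. Igf2bp3, singled out after its values were seen, was lower in counts by 10.7% but had 53.3 and 47.2 TPM in KK against 44.5 and 40.1 TPM in WT. Its direction thus turns with the length correction (log2 fold change 0.23 with the offset, edgeR adjusted p = 0.068). The call of Igf2bp3 was lost without WT replicate 1 (-0.16), in DESeq2 (DESeq2 adjusted p = 0.054) and with library size scaling. The risers, Rbmx and Fmr1, are both X-linked. Rbmx, which has near copies elsewhere in the genome, had 56 counts in KK and 22 in WT, and its call was lost in 6 alternatives, among them without KK replicate 2 (log2 fold change 1.08) and without WT replicate 1 (0.95). Fmr1, the fragile X protein gene, had 7.47 and 7.29 CPM in KK against 5.68 and 3.80 CPM in WT and lost its call in 4. The log2 fold change of Fmr1 ranged from 0.37 without WT replicate 2 to 0.95 without WT replicate 1.

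Of 3 meiotic partners of Ythdc2, 2 were lower and 0 higher. Meioc had 212 and 221 CPM in KK libraries, against 291 and 302 CPM in WT libraries, and fell by 27.2% (edgeR adjusted p = 8.8e-11). Rbm46 had 38.5 and 38.7 CPM in KK libraries, against 52.3 and 57.4 CPM in WT libraries, and fell by 29.6% (edgeR adjusted p = 5.4e-06). Both calls held in all 13 alternatives. Xrn1, the 5' to 3' exonuclease that binds YTHDC2, had 15.8 and 16.8 CPM in KK and 18.5 and 15.4 CPM in WT and did not pass. Among proteins that work with YTHDC1, the splicing factor genes Srsf3 and Srsf10 fell by 21.7% and 31.1%, the cleavage factor gene Cpsf6 rose by 23.6%, and the export receptor gene Nxf1 did not pass (edgeR adjusted p = 0.058). With the effective length offset Nxf1 passed as lower (log2 fold change -0.39, edgeR adjusted p = 0.0011), and without KK replicate 2 it passed as well (-0.14). In limma on log2(TPM + 1) Nxf1 was also lower (log2 fold change -0.37, limma adjusted p = 0.0065), likewise with a pseudocount of 0.1. The calls of Srsf3 and Srsf10 held in all 13 alternatives and that of Cpsf6 was lost in 3, among them without WT replicate 1 (log2 fold change 0.24).

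Of the genes that supply and recycle the methyl donor, Mat2a fell by 22.4%, with 44.5 and 46.0 CPM in KK libraries against 58.5 and 58.2 CPM in WT libraries, while Mat2b and Ahcy did not pass. In the rest of the AlkB family Alkbh1 fell by 29.3% and Alkbh3 rose by 21.5%, and the other 5 genes did not pass. The call of Alkbh1 was lost in limma with either pseudocount (limma adjusted p = 0.081 on log2(TPM + 1)). The call of Alkbh3 was lost in DESeq2 and without KK replicate 1 (log2 fold change 0.23).

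**Figure D5:**
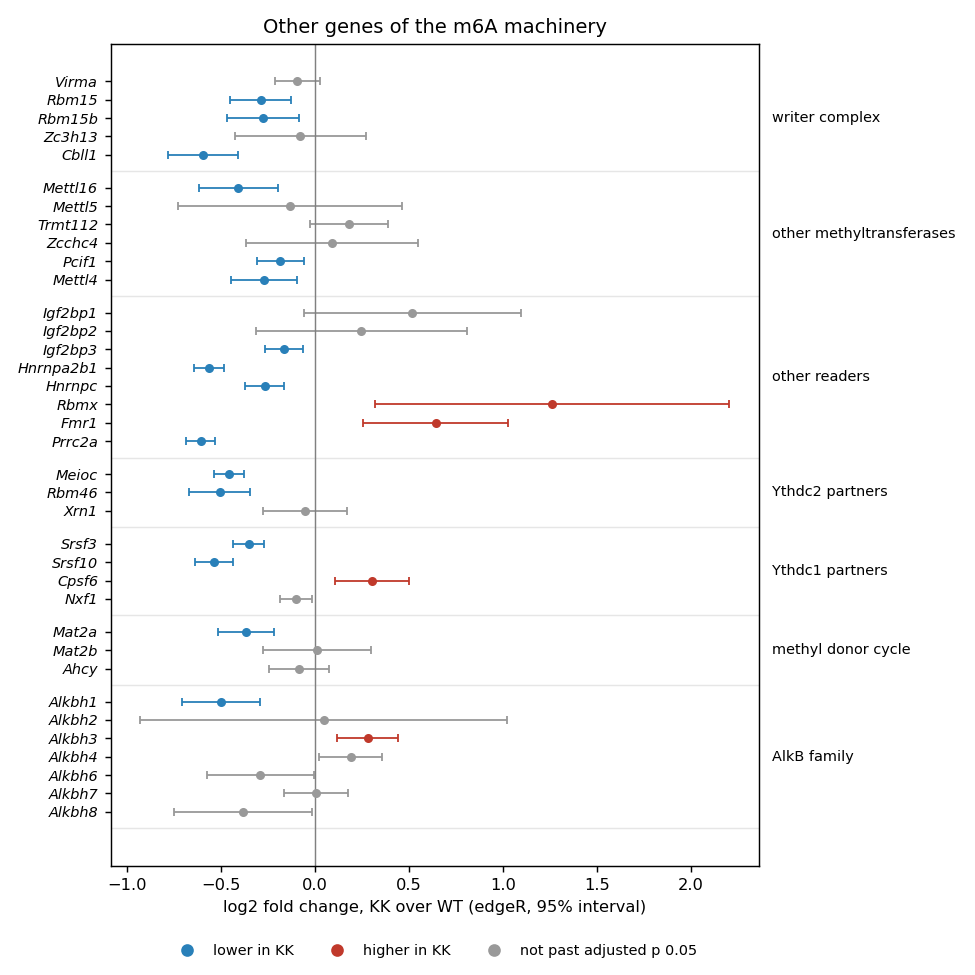
Log2 fold change of KK over WT for the mixed list of 36 further genes by role, with 95% intervals from edgeR. Blue genes passed as lower (16), red as higher (4) and grey did not pass (16). The largest rise, that of Rbmx, has a wide interval, at 56 counts in KK and 22 in WT.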

How the data were processed

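Per the file headers, the values the authors deposited are expected counts that are not all whole, TPM values and effective lengths for 55364 genes and for 142567 isoforms, with an isoform percent that was used as deposited. The submitters' processing notes name Bowtie, mm10 and GRCm38; the quantifier is not given in the sources used here. Names and coordinates come from GENCODE M21, which held 55104 of the gene identifiers. Expected counts were rounded and tested with edgeR 4.0.16 in R 4.3.3 (TMM, default expression filter, quasi-likelihood fit on genotype, Benjamini-Hochberg over 16571 genes at 0.05); SE is the log2 fold change over the square root of F. The test was tried on simulated data with 2-fold and 4-fold changes; changes as small as those of the m6A genes were not simulated. Alternatives were other scaling factors and filters, DESeq2 1.42.0, limma 3.58.1 on log2(TPM + 1) and log2(TPM + 0.1), an effective length offset, a replicate block and each library left out. DESeq2's adjusted p was missing for some genes, which were left out of its background. The named genes were the 10 genes, Ddx4, and up to 3 genes past the test per direction and role; the other genes named complete small roles or were singled out after their values were seen, and not every marker is described. The m6A genes and lists were chosen with earlier results of these data known. Protein sequences were planned but not used here.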

Additional observations from a re-analysis of the deposited data

How the results depend on the processing

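Of the 10 m6A genes, the count lower in KK was 5 in the main test and in 4 to 5 with each library left out, 2 with the effective length offset and 1 in limma on TPM with either pseudocount; the cause was not tested. Over all genes the lower and higher counts were 3589 and 3648, against 2283 and 2381 with the offset, 1551 and 2275 in limma on log2(TPM + 1), 1549 and 2209 on log2(TPM + 0.1), and 2518 and 2035 in DESeq2. With library size scaling 64.2% of the calls over all genes pointed upwards in KK, where TMM gave 50.4%, and the median of all genes moved to 0.087. Of the 36 further genes limma called 9 lower with either pseudocount, and 1 and 2 higher with pseudocounts of 1 and 0.1; DESeq2 called 0 higher, and leaving out a library gave 2 to 4 higher. Markers higher in KK numbered 24, and 14 and 15 in limma. In shares of CPM the Ythdf3 share moved to -3.16 and the Fto share to -3.52 percentage points, from -1.45 and 0.040; in shares of counts Fto-201 and Fto-207 moved to -4.15 and 2.70 from -13.7 and 10.9. Among the genes named, directions turned in 7 that had not passed (Mettl3, Wtap, Ythdf1, Alkbh5, Xrn1, Zc3h13 and Mat2b) and in the called Uchl1 and Igf2bp3: Mettl3 was -0.0019 with RLE factors, -0.012 in DESeq2 and without the filter, and -0.22 to 0.25 with a library left out; with library size scaling Wtap was 0.032, Ythdf1 0.028 and Alkbh5 0.052, and Ythdf1 was -0.19 to 0.078 with a library left out. The spermatogonial marker Uchl1 was -0.090 and -0.084 in limma and -0.26 with the offset, against 0.78. Igf2bp3 was 0.24 and 0.25 in limma and 0.23 with the offset, against -0.16. Xrn1 was 0.16 and 0.21 in limma, 0.20 with the offset, 0.029 with library size scaling, and -0.19 to 0.075 with a library left out. Zc3h13 was 0.12 and 0.16 in limma, 0.16 with the offset and 0.0065 with library size scaling, against -0.077. Mat2b was -0.0045 in limma with either pseudocount, -0.0030 in DESeq2, -0.0026 without the filter, -0.026 with the offset and -0.10 to 0.12 with a library left out, against 0.0099. Whether replicate numbers mark a pairing is not known. The correlation of deviations (-0.058) is the same for both numbers by construction and cannot exclude a pairing. With the replicate block 5 of 10 m6A genes and 16 of 36 further genes were lower, and 3634 and 3675 genes lower and higher over all. Depth limits Mettl3 and Mettl14, at 121 to 197 counts per library.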
